A study of Mus musculus with 6 samples.

Results

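The genes described here encode the proteins that choose splice sites in pre-mRNA and the kinases that regulate them, measured in mouse kidney epithelial cells that were attached or in suspension. They were taken by name from the authors' deposited table: rows naming 1 gene of the Srsf, Hnrnp, Clk, Sf3a or Sf3b families, together with Tra2a, Tra2b, Srpk1, Srpk2, U2af1, U2af2, Rbm39, Srrm1 and Srrm2. This gave 52 of the 37757 rows, and 50 of the 52 were tested by the authors. The cells carried the genotype Bim-/- Bmf-/- in both groups, so the attached controls lacked these BH3-only death genes as well, and they came from C57/Bl6J mice aged 8 weeks. One group of 3 libraries was attached and the other group of 3 libraries was kept in suspension for 4 h, which the sample titles call anoikis, the death of cells that lose anchorage. The design text calls the libraries independent, but nothing ties them to separate animals or cultures, so the spread behind the p-values may be technical. The table names its conditions by codes ending in A and S; since S can stand only for suspension, A was read as attached.

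Splicing is carried out by the spliceosome, and which exons it joins depends on proteins bound to the pre-mRNA. SR proteins carry stretches rich in arginine and serine and mostly promote the use of exons near which they bind, while hnRNP proteins often repress them. SRPK kinases phosphorylate SR proteins in the cytoplasm, which lets them enter the nucleus, and CLK kinases phosphorylate them further in the nucleus. Many SR and hnRNP genes, and the CLK genes, control their own output by splicing into transcripts that are retained in the nucleus or destroyed by nonsense-mediated decay.

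Each gene has 1 FPKM per condition per the authors' deposited table, pooled over its libraries (fragments per kilobase of transcript, scaled to the mapped total, so levels can be compared between genes). The values of single libraries were not analysed here, so neither the spread over replicates nor the depth is known. A gene is called when the authors' q, a p-value adjusted over all tested genes, is below 0.05. Higher and lower always mean suspended against attached. Where a called gene is given with its FPKM but without a q, its q is 0.000185, the smallest per the authors' deposited table. A p of 5e-05 is the lowest the deposited table holds, and 21 of the splicing factor genes sit on it.

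In suspension the splicing kinases CLK1 to CLK4 and SRPK2 had higher transcript levels, while most SR protein and hnRNP genes that changed were lower. Of the 50 tested genes, 12 were called higher, 22 lower and 16 were not called per the authors' deposited table. Over all 14748 tested rows, 24.7% were called higher and 26.3% lower. The splicing factor genes are well expressed, the lowest tested one at 5.44 FPKM attached, and among tested rows of at least 5 FPKM in both conditions 21.1% were called higher and 33.8% lower. The share of splicing factor genes called higher, 24.0%, is therefore near both backgrounds, and the share called lower, 44.0%, is above both. The background share called lower itself rises with level, being 30.9% at 1 FPKM or more. Most splicing factor genes lie well above 5 FPKM, so neither background matches their level, and the part of level in the 44.0% was not tested. Their median log2 fold change was -0.24, beside -0.13 over tested rows of at least 5 FPKM and -0.04 over all tested rows. Taken relative to the median of tested rows of at least 1 FPKM (-0.11), it was -0.13. Changes were moderate in size: Clk1 and Hnrnpr alone differed by 2-fold or more. When calls also had to reach 1.5-fold, 3 genes were higher, all of them kinases (Clk1, Srpk2 and Clk2), and 12 were lower. The share of all tested rows passing this cut was not computed, so these counts have no background beside them.

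**Figure D1:**
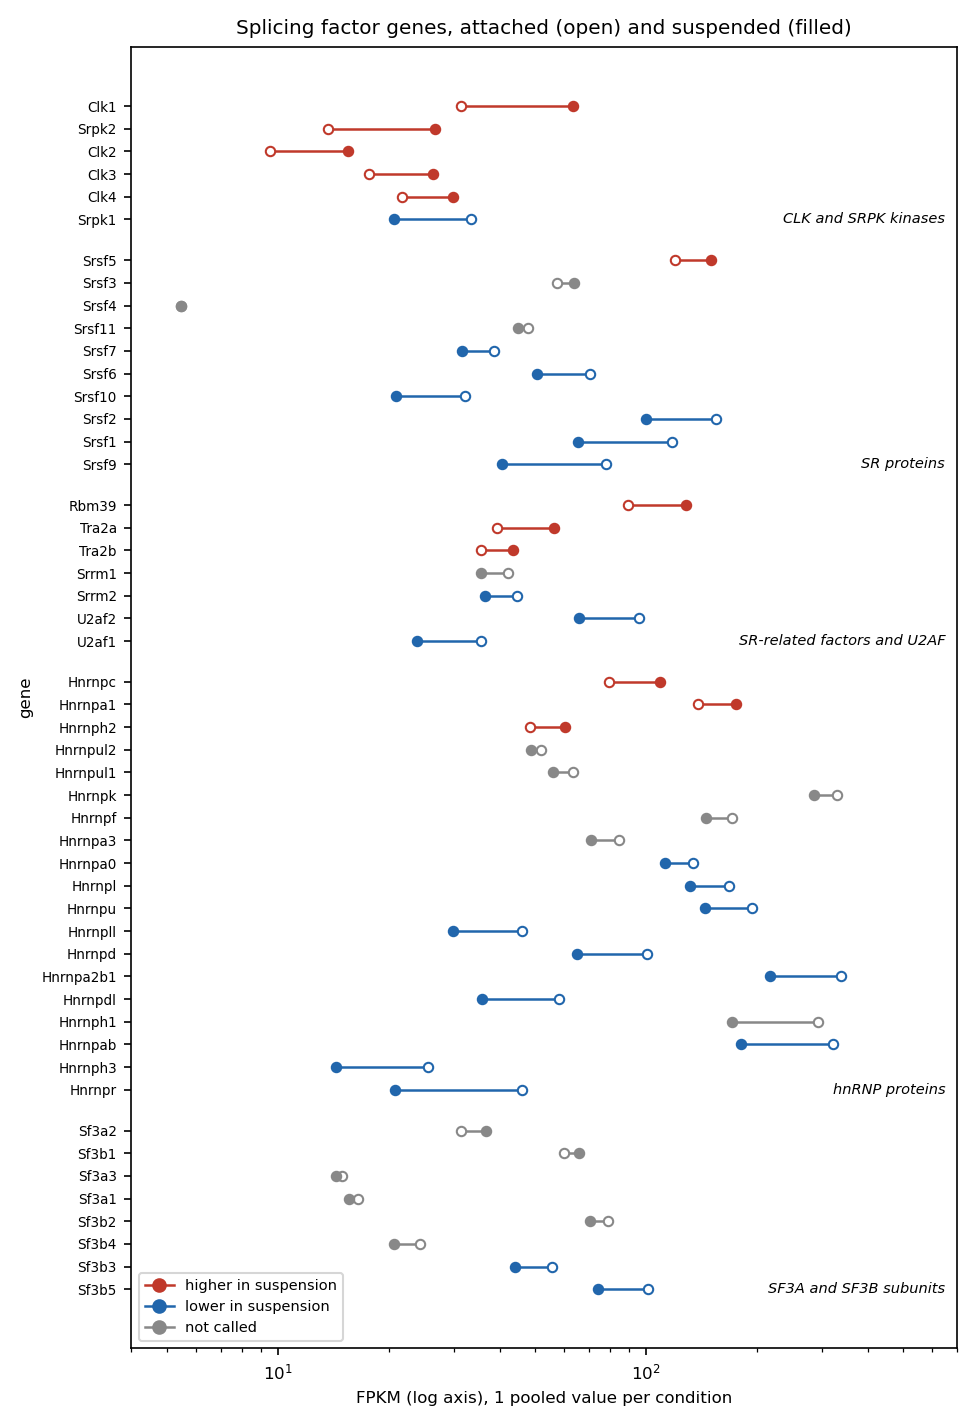
FPKM of the 50 tested splicing factor genes on a log axis, 1 pooled value per condition (authors' deposited table; open is attached, filled is suspended), ordered within each class by fold change and coloured by call. All 4 CLK genes move to the right, from 9.49 to 15.5 FPKM for Clk2 (q = 0.000355) and from 31.5 to 63.5 FPKM for Clk1. Hnrnpr makes the longest move to the left.

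The kinases were the class in which every gene was called, with 5 of 6 higher and 1 lower. Among tested rows of at least 5 FPKM in both conditions, 21.1% were called higher and 33.8% lower. Of the 7 SR-related and U2AF genes, 1 was not called. Clk1, a dual-specificity kinase of SR proteins (chromosome 1, positions 58410189 to 58424066, minus strand), stood at 31.5 FPKM attached and 63.5 FPKM suspended per the authors' deposited table, a log2 fold change of 1.01. It moved from place 41 to place 22 among the 52 genes ordered by FPKM. Clk2, its close relative (chromosome 3, positions 89164795 to 89176921, plus strand), had 9.49 FPKM attached and 15.5 FPKM suspended (log2 0.71, q = 0.000355, authors' deposited table). Clk3 (chromosome 9, positions 57750624 to 57765860, minus strand) went from 17.7 to 26.4 FPKM (log2 0.58, q = 0.000676) per the authors' deposited table. The smallest rise was that of Clk4 (chromosome 11, positions 51261730 to 51281766, plus strand), from 21.8 to 29.9 FPKM (log2 0.46, q = 0.0135, authors' deposited table). Clk1 was the highest of the 4 in both conditions and Clk2 the lowest, and the summed level of the 4 genes was 80.4 FPKM attached and 135 FPKM suspended.

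The SRPK genes moved in opposite directions, so that their order was exchanged. Srpk1 (chromosome 17, positions 28587648 to 28622709, minus strand) fell from 33.5 to 20.7 FPKM (log2 -0.69) per the authors' deposited table. Srpk2 (chromosome 5, positions 23503264 to 23684617, minus strand) rose from 13.7 to 26.7 FPKM (log2 0.97) (authors' deposited table). Srpk1 was 2.45 times Srpk2 in attached cells, and Srpk2 was 1.29 times Srpk1 in suspended cells. No test of the difference between these genes was run. Srpk2, Clk3 and Clk4 overlap a gene on the other strand, and whether strand was counted is not given in the sources used here. Kmt2e, which overlaps Srpk2, was itself called higher (19.7 to 25.3 FPKM, q = 0.0277), as was Edc3, which overlaps Clk3 (5.64 to 9.14 FPKM, q = 0.00185), per the authors' deposited table. BC049762, which overlaps Clk4, stayed under 1 FPKM. The part of such overlaps in the kinase values was not tested; Clk1, Clk2 and Srpk1 share their deposited position with no other row.

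Sequences around the RefSeq starts of genes that moved together are shown because all 4 CLK genes rose. They run from 250 bases before to 50 bases after the gene's start, come from RefSeq (GRCm38.p6) and read 5′ to 3′ on the gene's strand. The promoters of Clk2 (chr3:89164545-89164844, plus strand), Clk3 (chr9:57765065-57765364, minus strand) and Clk4 (chr11:51262864-51263163, plus strand) are printed, as Clk1 has no entry, with that of Tra2a (chr6:49264003-49264302, minus strand), a splicing activator that also rose. That of Hnrnpr (chr4:136310692-136310991, plus strand), the gene that fell most, stands beside them as a gene that moved the other way, and it holds the marked letters too. They were picked after the matches were seen, and some RefSeq starts differ from the GENCODE gene ends. The windows of Clk3 and Clk4 lie wholly inside the GENCODE gene positions given above, so they are not upstream of those starts. Capitals mark TGACG or its reverse complement, the core of the cyclic AMP response element, which CREB and ATF factors bind.
Clk2: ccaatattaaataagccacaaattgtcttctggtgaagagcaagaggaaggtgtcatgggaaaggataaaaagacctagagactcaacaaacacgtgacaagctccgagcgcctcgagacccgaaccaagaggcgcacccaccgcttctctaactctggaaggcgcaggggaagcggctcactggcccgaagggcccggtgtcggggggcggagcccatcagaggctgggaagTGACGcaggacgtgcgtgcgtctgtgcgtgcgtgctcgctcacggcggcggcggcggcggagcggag
Clk3: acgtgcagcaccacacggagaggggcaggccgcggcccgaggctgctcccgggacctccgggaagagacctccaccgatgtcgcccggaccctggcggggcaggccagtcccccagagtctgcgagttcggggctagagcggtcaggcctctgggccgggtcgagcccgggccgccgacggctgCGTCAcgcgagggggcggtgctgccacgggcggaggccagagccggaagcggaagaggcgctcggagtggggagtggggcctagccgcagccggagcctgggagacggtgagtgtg
Clk4: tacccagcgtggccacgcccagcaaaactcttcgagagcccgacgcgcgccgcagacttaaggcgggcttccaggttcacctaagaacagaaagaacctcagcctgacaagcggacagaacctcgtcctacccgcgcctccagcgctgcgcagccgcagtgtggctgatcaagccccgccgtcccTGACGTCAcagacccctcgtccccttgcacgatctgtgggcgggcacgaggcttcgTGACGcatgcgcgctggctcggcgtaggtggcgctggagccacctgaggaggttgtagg
Tra2a: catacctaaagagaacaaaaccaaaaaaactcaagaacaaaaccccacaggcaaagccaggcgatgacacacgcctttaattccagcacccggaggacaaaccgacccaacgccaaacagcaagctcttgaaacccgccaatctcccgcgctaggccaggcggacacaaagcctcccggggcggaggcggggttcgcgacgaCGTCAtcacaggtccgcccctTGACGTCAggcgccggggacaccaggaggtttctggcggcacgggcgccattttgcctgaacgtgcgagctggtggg
Hnrnpr: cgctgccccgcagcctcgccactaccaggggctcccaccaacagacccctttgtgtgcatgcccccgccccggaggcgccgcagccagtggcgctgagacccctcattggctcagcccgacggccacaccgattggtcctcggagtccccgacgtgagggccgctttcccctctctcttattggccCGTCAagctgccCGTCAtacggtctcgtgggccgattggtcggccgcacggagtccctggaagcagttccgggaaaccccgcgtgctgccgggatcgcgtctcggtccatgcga

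Each of the 5 promoters held the TGACG core, but they were picked after the matches were seen, so this describes the choice. Those of Clk4 and Tra2a also held the full element TGACGTCA, inside which the core occurs on both strands. Counted on both strands, the core occurred 2 times in Hnrnpr, 1 time each in Clk2 and Clk3, and 3 times each in Clk4 and Tra2a. Of the 44 tested splicing factor genes with a RefSeq promoter (the first listed start was used), 23 held TGACG on either strand, or 52.3%, beside 31.6% of the 9711 promoters of tested genes and 21.02% of all 27025. By call, it was present in 8 of 11 promoters of genes called higher, 10 of 19 of genes called lower and 5 of 14 of genes not called. The full element TGACGTCA was in 2 of the 44, or 4.55%, beside 3.26% of tested genes. CCAAT, the box bound by NF-Y, was in 23 of the 44 promoters (52.3%), beside 38.8% of tested genes. CCGGAAG, an ETS site, was in 12 (27.3%), beside 17.5% of tested genes, and 7 of these 12 belonged to genes that were not called. Against these, TGANTCA, the AP-1 site, was in 1 of 44 and GTAAACA, a FOXO site, in 1 of 44 (2.27% each), beside 5.19% and 2.49% of tested genes. CACGTG, an E-box, was in 4 of 44 (9.09%, beside 10.1%), GGGCGG, a GC box, in 33 (beside 64.4%) and GAANNTTC, part of a heat shock element, in 5 (11.4%, beside 5.68%). These 9 motifs were searched on both strands and were chosen after results of these data were known. A match describes the letters in this window and is no evidence of binding.

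SR proteins were lower in 6 of 10 tested genes and higher in 1, beside 33.8% lower and 21.1% higher among tested rows of at least 5 FPKM. The class had a median log2 fold change of -0.38 and a summed level of 722 FPKM attached and 574 FPKM suspended. Srsf9 (chromosome 5, positions 115327177 to 115333080) changed most, from 77.7 to 40.7 FPKM (log2 -0.93) per the authors' deposited table. Srsf1, the SR protein also known as SF2/ASF and a general activator of splicing (chromosome 11, positions 88047373 to 88053755), fell from 118 to 65.5 FPKM (log2 -0.85, authors' deposited table). Srsf2, also known as SC35 (chromosome 11, positions 116849901 to 116853094), fell from 155 to 99.8 FPKM (log2 -0.64, authors' deposited table). Its deposited position is shared with Jmjd6 and with the merged row of Mettl23 and Mfsd11, of which Jmjd6 was not called (25.1 and 15.1 FPKM, q = 0.0581) and the merged row was called higher (27.5 to 43.2 FPKM, q = 0.0334, authors' deposited table).

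Srsf10, an SR-like protein known to act as a repressor when dephosphorylated, fell from 32.2 to 20.9 FPKM, and Srsf6 from 70.5 to 50.6 FPKM (log2 -0.63 and -0.48) per the authors' deposited table. The fall of Srsf7 was smaller, 38.6 to 31.6 FPKM (log2 -0.29, q = 0.0307), per the authors' deposited table. Srsf5 was the exception, higher at 151 FPKM against 120 FPKM (log2 0.33, q = 0.0170, authors' deposited table). By FPKM it came after Srsf2 and close to Srsf1 in attached cells, and first among SR protein genes in suspended cells. Srsf3, the smallest SR protein, stood at 57.4 and 63.9 FPKM (q = 0.293), Srsf11 at 47.7 and 44.8 FPKM (q = 0.572) and Srsf4 at 5.44 and 5.47 FPKM (q = 0.987) per the authors' deposited table. These 3 were not called, which does not show equal levels. Srsf12 was listed at 0.0531 and 0.187 FPKM and was not tested.

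Among the SR-related factors, the TRA2 proteins, which bind purine-rich exonic enhancers beside SR proteins, were both higher. Tra2a (chromosome 6, positions 49243924 to 49264033) rose from 39.4 to 56.2 FPKM (log2 0.51) and Tra2b (chromosome 16, positions 22244549 to 22266005) from 35.6 to 43.5 FPKM (log2 0.29, q = 0.0366) per the authors' deposited table. Rbm39, a U2AF-related factor also called CAPER alpha (chromosome 2, positions 156147239 to 156180238), rose from 89.5 to 129 FPKM (log2 0.52, authors' deposited table). The subunits of U2AF itself, which recognises the 3′ splice site, both fell. U2af1 went from 35.7 to 23.8 FPKM and U2af2 from 95.7 to 65.6 FPKM (log2 -0.58 and -0.54) per the authors' deposited table. So Rbm39 and the U2AF subunits, which share a related RNA-binding domain, moved in opposite directions. Of the SR-related matrix proteins, large speckle components, Srrm2 fell from 44.5 to 36.6 FPKM (log2 -0.28, q = 0.0145) and Srrm1 stood at 42.2 and 35.6 FPKM (log2 -0.25, q = 0.0975) per the authors' deposited table. The standard errors of these log2 values implied by the deposited p were 0.13 for Srrm1 and 0.10 for Srrm2.

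The hnRNP genes were the most abundant class, summing to 2694 FPKM attached and 2078 FPKM suspended over 19 tested genes. Of these, 10 were lower (52.6%), 3 higher (15.8%) and 6 not called, with a median log2 fold change of -0.35. Tested rows of at least 5 FPKM in both conditions were lower in 33.8% and higher in 21.1%, with a median of -0.13. Hnrnpr (chromosome 4, positions 136310942 to 136359447) fell most, from 46.1 to 20.8 FPKM (log2 -1.15), per the authors' deposited table. Hnrnph3 (chromosome 10, positions 63014664 to 63024217) fell from 25.6 to 14.4 FPKM (log2 -0.83, q = 0.000676) per the authors' deposited table. It overlaps Rufy2 on the other strand, which was called higher (6.93 to 14.7 FPKM, authors' deposited table). The fall of Hnrnpab (chromosome 11, positions 51600100 to 51606847) was of like size, from 322 to 182 FPKM (log2 -0.83, authors' deposited table). Hnrnpd, also known as AUF1, binds AU-rich elements that mark mRNA for decay, and it fell from 101 to 64.9 FPKM (log2 -0.64, authors' deposited table). Its relative Hnrnpdl fell from 57.9 to 35.8 FPKM (log2 -0.70, authors' deposited table).

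The hnRNP A genes did not move together. Hnrnpa2b1, a binder of UAG motifs (chromosome 6, positions 51460932 to 51469894), was the most abundant of all 52 genes in attached cells and fell from 338 to 217 FPKM (log2 -0.64, authors' deposited table). Its paralog Hnrnpa1, a classical repressor of exons (chromosome 15, positions 103240432 to 103246692), rose from 138 to 176 FPKM (log2 0.34, q = 0.00213) per the authors' deposited table. Hnrnpa0 fell from 135 to 113 FPKM (log2 -0.25, q = 0.0327), and Hnrnpa3 stood at 84.3 and 70.9 FPKM (q = 0.0973) per the authors' deposited table. Hnrnpa1 has near-identical processed copies in the genome, so its value is uncertain where reads could be split between copies. The row of one such copy, Hnrnpa1l2-ps, was listed at 0 FPKM attached and 0.0253 FPKM suspended and was not tested.

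The hnRNP H and F genes, binders of G-rich runs, were also divided. Hnrnph2 rose from 48.5 to 60.1 FPKM (log2 0.31, q = 0.0101), while Hnrnph3 fell, per the authors' deposited table. Hnrnph1 (chromosome 11, positions 50376990 to 50386528) was lower by 1.71-fold, at 293 FPKM attached and 171 FPKM suspended, yet was not called (log2 -0.78, q = 0.140, authors' deposited table). Smaller differences were called elsewhere in the class, such as that of Hnrnpa0. Hnrnpf stood at 171 and 146 FPKM (q = 0.285) per the authors' deposited table.

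Hnrnpc, which binds uridine tracts and shields cryptic exons, rose from 79.1 to 109 FPKM (log2 0.47) per the authors' deposited table. Its chromosomal position is chromosome 14, positions 52073377 to 52104028. Hnrnpu, a nuclear scaffold protein also called SAF-A, fell from 194 to 144 FPKM (log2 -0.43), and Hnrnpl, a binder of CA repeats, from 168 to 132 FPKM (log2 -0.35, q = 0.00551), per the authors' deposited table. Hnrnpll, a relative of Hnrnpl, fell from 46.0 to 29.8 FPKM (log2 -0.63) per the authors' deposited table. Hnrnpk, a binder of cytidine-rich RNA and DNA, stood at 330.4 and 286 FPKM (q = 0.2496), which made it the most abundant of the genes in suspended cells, per the authors' deposited table. Hnrnpul1 stood at 63.5 and 55.9 FPKM (q = 0.136) and Hnrnpul2 at 51.7 and 48.8 FPKM (q = 0.535) per the authors' deposited table. A further hnRNP gene, Hnrnpm, lies in a row merged with March2 and was not counted; that row was called lower (120 to 90.8 FPKM, q = 0.00128, authors' deposited table).

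The SF3A and SF3B subunits, core parts of the U2 snRNP that hold the branch point, had the lowest share of calls among the 5 classes. None of the 8 was called higher, 2 were called lower and 6 were not called, with a median log2 fold change of -0.12. Tested rows of at least 5 FPKM in both conditions were lower in 33.8% and higher in 21.1%, with a median of -0.13. All tested rows were lower in 26.3% and higher in 24.7%. The class median and its 2 of 8 called lower are thus near background, and only the lack of rises stands apart. Sf3b5 fell from 101 to 74.1 FPKM (log2 -0.45) and Sf3b3 from 55.7 to 44.1 FPKM (log2 -0.34, q = 0.0279) per the authors' deposited table. The position of Sf3b3 is shared with Cog4, St3gal2 and Fuk, of which Fuk was also called lower (8.92 to 4.30 FPKM, q = 0.0305, authors' deposited table). Sf3b1, the subunit that contacts the branch point, stood at 59.8 and 65.9 FPKM (q = 0.269) per the authors' deposited table. Sf3b2 stood at 79.1 and 70.6 FPKM (q = 0.190) and Sf3b4 at 24.2 and 20.7 FPKM (q = 0.262) per the authors' deposited table. The SF3A subunits bridge SF3B to the rest of the U2 particle, and none was called. Sf3a1 was at 16.5 and 15.6 FPKM (q = 0.592, authors' deposited table). Sf3a2 was at 31.5 and 36.7 FPKM (q = 0.306) and Sf3a3 at 14.98 and 14.4 FPKM (q = 0.763, authors' deposited table). Sf3b6, listed under an older name and so outside the naming rule, was at 59.0 and 54.3 FPKM (q = 0.429, authors' deposited table).

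A rough error of each log2 fold change follows from the deposited p, as the size of the change divided by the normal quantile of p. For the 29 genes whose p lay above the lowest value, this implied standard error had a median of 0.12, from 0.10 to 0.44. The highest value, 0.44, was that of Hnrnph1, and the next was 0.30 for Srsf4. For the 21 genes at the lowest p it gives an upper limit only, from 0.11 for Hnrnpu to 0.28 for Hnrnpr. The 16 genes that were not called had log2 fold changes from -0.78 to 0.22, of which 12 were below 0 and 4 above, and 15 of the 16 were smaller than 0.25 in size. 

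**Figure D2:**
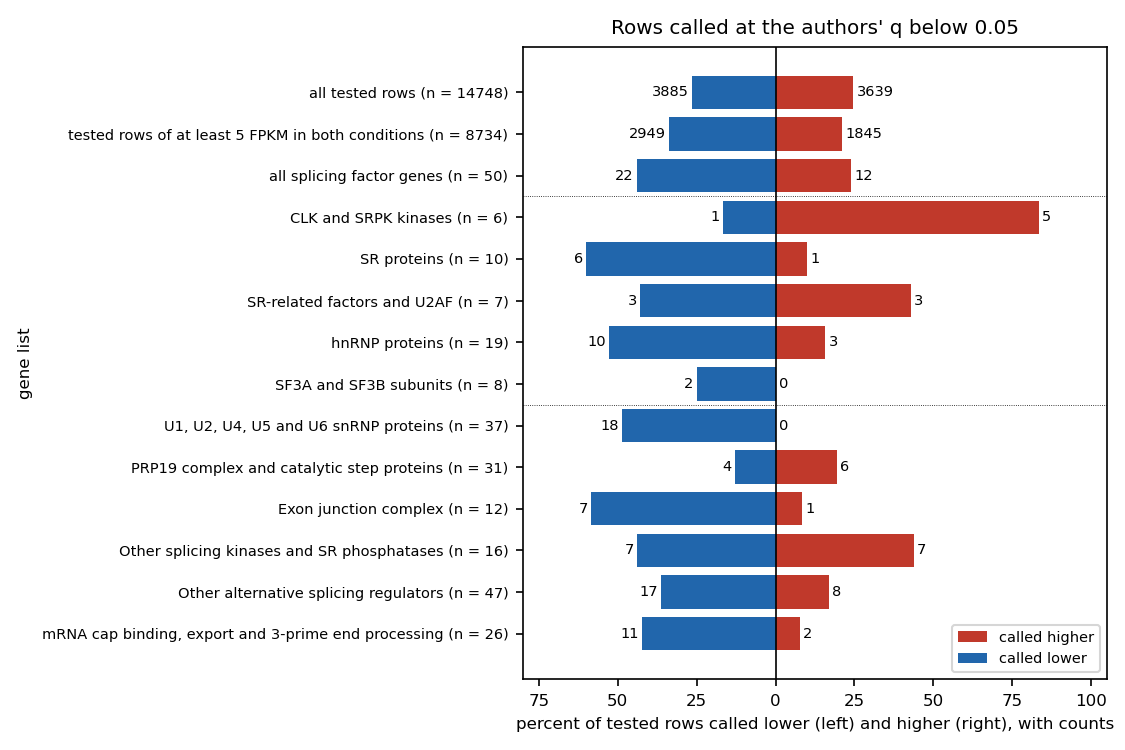
Percent of tested rows called lower (left, blue) and higher (right, red) at the authors' q below 0.05, with counts beside the bars, for all tested rows, rows of at least 5 FPKM, the splicing factor genes and their classes, and lists of other splicing genes. The kinases have 5 of 6 called higher and the SR proteins 6 of 10 called lower, beside 21.1% higher and 33.8% lower among rows of at least 5 FPKM.

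Other genes of the splicing pathway were set beside these in 6 lists with 180 symbols, of which 169 had a tested row of their own. In all, 24 were called higher (14.2%) and 64 lower (37.9%), beside 21.1% and 33.8% among tested rows of at least 5 FPKM, so the share called lower is near that background. Proteins of the U1, U2, U4, U5 and U6 snRNPs, the building blocks of the spliceosome, were lower in 18 of 37 and higher in none (median log2 -0.39). Snrnp70, which binds U1 snRNA, went from 82.5 to 26.4 FPKM, Prpf38b from 35.4 to 16.3 and Usp39 from 38.1 to 18.8 FPKM (log2 -1.64, -1.12 and -1.02) per the authors' deposited table. Exon junction complex genes were lower in 7 of 12 and higher in 1 (median -0.40). Upf3b, a decay factor bound to that complex, went from 13.1 to 6.44 FPKM and Magohb from 48.9 to 29.5 FPKM per the authors' deposited table. The 1 called higher, named after its value was seen, was the related Upf3a, from 13.6 to 20.1 FPKM (log2 0.56, authors' deposited table).

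The PRP19 complex and catalytic step list had 6 of 31 higher (19.4%), 4 lower (12.9%) and a median of 0.00. The background of tested rows of at least 5 FPKM was 21.1% higher and 33.8% lower, so only the share called lower stands apart from it. The 3 called genes with the largest changes were falls, among them Dhx15, a helicase that takes spliceosomes apart, from 90.0 to 47.3 FPKM (log2 -0.93, authors' deposited table). Of the rises, named after their values were seen, the second-step factors Slu7 and Prpf18 went from 25.8 to 48.1 FPKM and from 17.1 to 27.4 FPKM (log2 0.90 and 0.68, authors' deposited table). Other splicing kinases and SR phosphatases split into 7 higher and 7 lower of 16 (43.8% each, median log2 0.39), beside the same background. The rises, listed after their values were seen, were the kinases Dyrk1a, Dyrk1b, Dyrk2, Hipk2, Hipk3 and Top1, and the phosphatase Ppp1cb. The falls were the kinases Prpf4b, Hipk1 and Akt1, and the phosphatase genes Ppp1ca, Ppp1cc, Ppm1g and Ppp1r8. Prpf4b, a kinase of the tri-snRNP, fell from 28.7 to 9.18 FPKM (log2 -1.64) and the phosphatase Ppm1g from 79.95 to 32.5 FPKM (log2 -1.30) per the authors' deposited table. Dyrk1b, a kinase of the same CMGC group as the CLKs, rose from 14.3 to 27.9 FPKM (log2 0.97) per the authors' deposited table. The rise of the CLK genes was thus not shared by every kinase of splicing factors.

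Alternative splicing regulators outside the SR and hnRNP families were higher in 8 and lower in 17 of 47 (17.0% and 36.2%, median -0.14), near the shares and the median (-0.13) of tested rows of at least 5 FPKM. Cirbp, a cold-inducible RNA-binding protein, rose from 33.0 to 90.1 FPKM (log2 1.45), while Luc7l3, a U1-associated protein, fell from 40.3 to 15.4 FPKM (log2 -1.39) per the authors' deposited table. Cap binding, export and 3′ end processing genes were higher in 2 and lower in 11 of 26 (7.69% and 42.3%, median -0.32), beside 21.1% and 33.8% among those rows. Cpsf6, a subunit of cleavage factor I, went from 44.5 to 12.7 FPKM (log2 -1.81), and Pcf11, a termination factor, from 7.46 to 18.0 FPKM (log2 1.27) per the authors' deposited table. Several of these genes changed by more than any of the 50 tested splicing factor genes, among which Hnrnpr had the largest log2 change in size (-1.15).

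**Figure D3:**
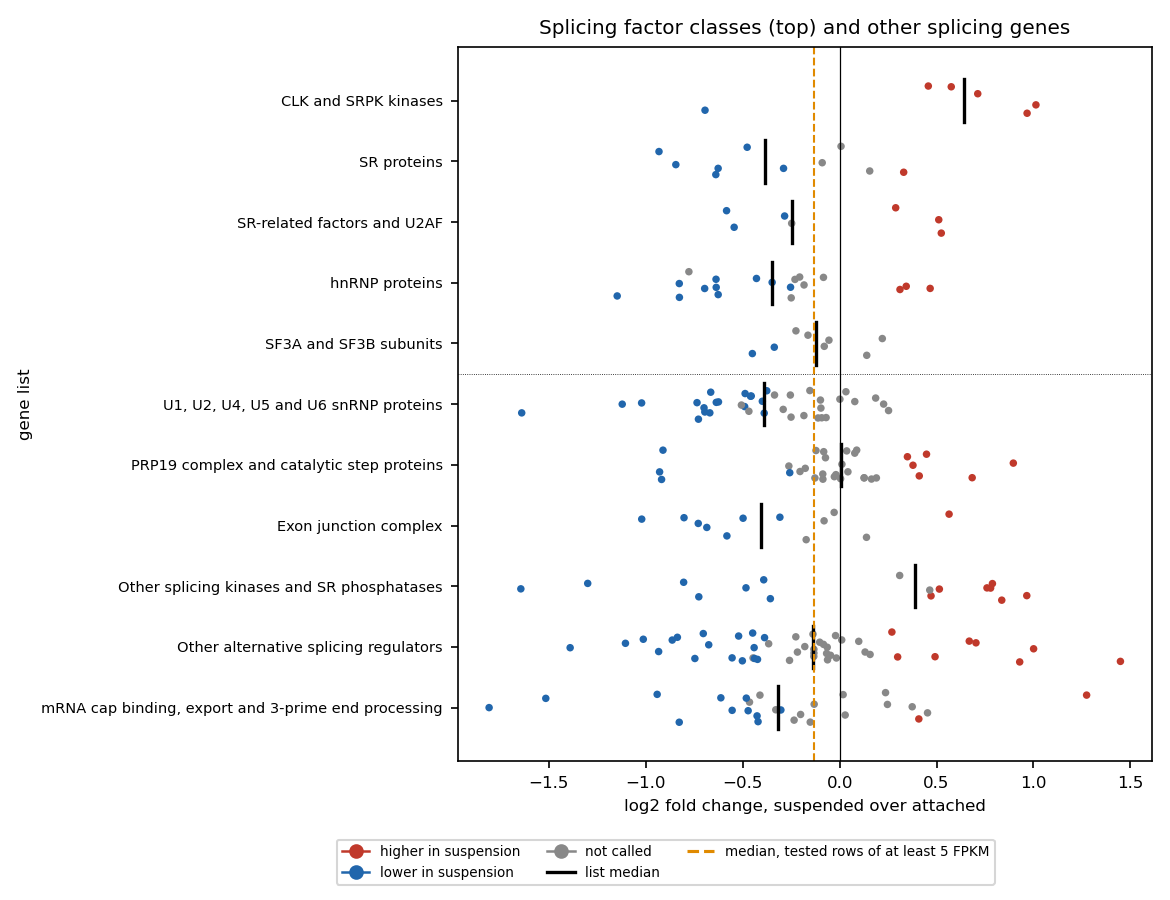
Log2 fold change (suspended over attached, authors' deposited table) of each tested gene in the 5 splicing factor classes, above the dotted line, and the 6 lists of other splicing genes, below it. Points are coloured by call, black bars are list medians and the dashed line is the median of tested rows of at least 5 FPKM (-0.13); the kinase median lies at 0.64 and the SR protein median at -0.38.

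A feature of these genes that their choice did not use is the kind of transcripts annotated for them. In GENCODE M21 (GRCm38), 33 of the 50 tested genes, or 66.0%, have at least 1 transcript annotated for nonsense-mediated decay, beside 27.7% of 11807 tested coding genes. Genes with many annotated transcripts have such forms more often. Among genes with at least 6 transcripts the shares were 82.4% (28 of 34) and 45.3%. All 6 kinases, 9 of 10 SR proteins and all 7 SR-related and U2AF genes have one, but 10 of 19 hnRNP genes and 1 of 8 SF3 subunits. Rbm39 has 8 such transcripts, the most of the genes here, Clk4 has 3 and Clk1 has 2. By call, 10 of 12 genes called higher, 17 of 22 called lower and 6 of 16 not called have one. Retained intron transcripts are annotated for 40 of the 50 genes, beside 57.9% of tested coding genes; with at least 6 transcripts the shares were 91.2% and 81.2%. Clk1 and Clk4 have 7 such transcripts each, and Hnrnpk has 13, the most of the genes here. The deposited FPKM gives 1 value per gene, so how much of a level comes from such transcripts was not analysed here.

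**Figure D4:**
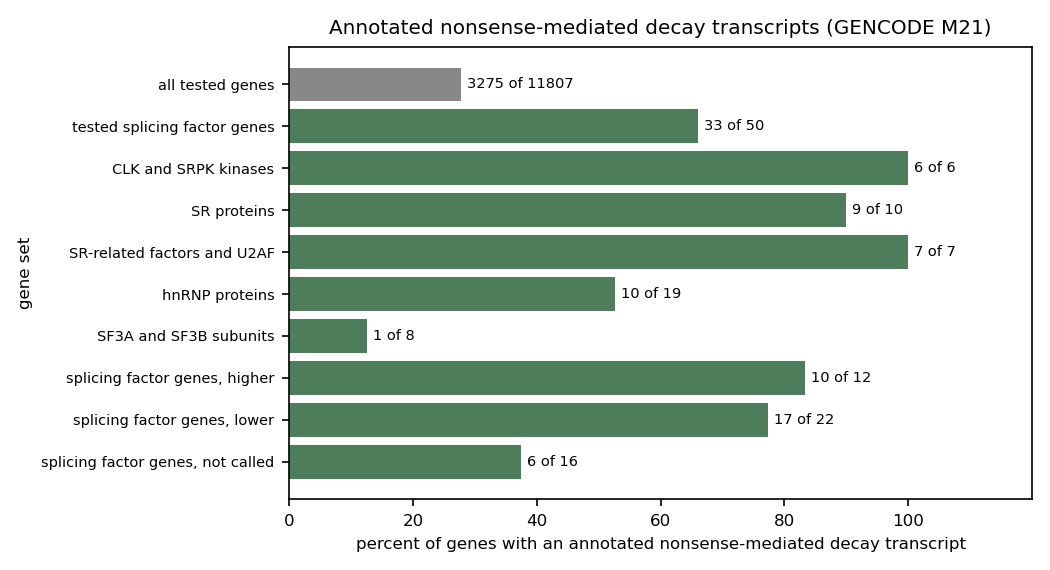
Percent of genes with at least 1 transcript annotated for nonsense-mediated decay in GENCODE M21, for all tested coding genes (grey) and for the splicing factor genes by class and by call (green), with counts beside the bars. The share is 100% in the kinases and 12.5% in the SF3 subunits, beside 27.7% in all tested coding genes.

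As to the cells, 9 of 9 kidney epithelial markers were tested, with a sum of 2727 FPKM attached and 2571 FPKM suspended, most of it from Krt18, Krt8 and Cdh16. Of the 9, 3 were called higher and 5 lower, and the sum hides larger shifts. Pax2 fell from 150.2 to 30.9 FPKM and Pax8 from 104 to 37.1 FPKM (log2 -2.28 and -1.49), while Cdh1 rose from 95.4 to 201 FPKM (log2 1.08, authors' deposited table). Markers of fibroblasts summed to at most 1.97 FPKM and those of endothelium to at most 0.353 FPKM in either condition, although Pdgfra was called higher (0.155 to 1.81 FPKM, authors' deposited table), with Lum, Col3a1 and Emcn at 0, and those of podocytes to at most 0.0228 FPKM. The 6 leukocyte markers with a row summed to 25.1 FPKM attached and 47.7 FPKM suspended, nearly all from Cd68 and Ptprc, which were both called higher, while Cd79a, Itgam, Cd3e and Emr1 lay under 1 FPKM. Ptprc rose from 1.42 to 12.4 FPKM (log2 3.13) and Cd68 from 23.4 to 34.9 FPKM (log2 0.58) per the authors' deposited table. Of 5 listed signs of RNA quality, 2 had a row of their own. The mitochondrial transcript mt-Cytb was higher at 3310.2 against 1076 FPKM (log2 1.62), more than any tested splicing factor gene, and Malat1 stood at 79.2 and 69.6 FPKM (q = 0.538, authors' deposited table). In bulk RNA, fewer cells of a kind and less RNA per cell cannot be told apart, and the part of these shifts in the splicing factor values was not tested.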

How the data were processed

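Messenger RNA from 6 libraries, 3 attached and 3 suspended, was sequenced on an Illumina instrument, per the labels' protocols. TopHat, Bowtie, Cufflinks 1.0.3 and Cuffdiff are listed in the submitters' processing notes, as is mm10. The sources used here give no settings, annotation or use of strand. The FPKM in the deposited table were made by the authors, 1 value per condition. The log2 fold change, the test score, the p-value and the q-value are from the authors' own test, per the file headers. Columns ending in A and S were read as attached and suspended, which rests on S standing for suspension.

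No test over libraries was run here. Calls were counted at q below 0.05, medians and implied errors were computed, and the arithmetic was tested on simulated data. The genes, lists, classes and motifs were chosen with earlier results of these data known, and the motifs and the 5 FPKM background after seeing them. Genes were named by rule: all kinases, the 8 largest called rises and falls (5 FPKM or more in either condition), the 3 highest means, the rest by their values, and up to 3 called genes per other list with the largest changes. Overlapping genes were named after their values were seen. Gene positions and transcript classes are from GENCODE M21, promoters from RefSeq. In all, 18 of the 52 genes share their deposited position with another row. Protein features were not analysed here. Software was Python 3.11.15 with matplotlib 3.10.9, pandas 2.3.3, SciPy 1.17.1 and NumPy 2.4.6. Depth per library is unknown.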

Additional observations from a re-analysis of the deposited data

How the results depend on the processing

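No paired analysis was possible because the deposited table gives 1 value per condition; for the same reason no replicate was left out. The 12 genes called higher and 22 called lower became 3 and 12 when a 1.5-fold change was also required, and 1 and 1 with a 2-fold change. The counts over the lists of other splicing genes, 24 and 64, became 13 and 36 with 1.5-fold and 3 and 11 with 2-fold, an alternative added after seeing the data. A q below 0.01 left 8 and 18 of the splicing factor genes. Shares over all tested rows were not computed at these stricter cuts, so the counts cannot be read against a background. The recomputed adjustment left both counts at 12 and 22. The minimum of 1 FPKM and centring could not change them, since the lowest tested gene had 5.44 FPKM attached and the smallest called change, that of Hnrnpa0 (-0.25), exceeds the shift; adding the merged row gave 23 lower. Centring on the median of tested rows of at least 1 FPKM (-0.11) moved the median log2 fold change from -0.24 to -0.13, and adding the merged row moved it to -0.25. Centring turned the sign of 4 genes that were not called. A pseudocount of 1 FPKM moved no log2 value of the 50 tested genes by more than 0.055. Depth is unknown, so it cannot be said which differences it hides.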
